A study of Mus musculus with 20 samples.

Results

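Tyrosine hydroxylase, the product of the mouse gene Th, was followed in 4 regions of the brain in null mutant mice, each set against a wild-type pool. Th was 1 of 7117 genes with a symbol on these arrays, and 1 probe of 15245 carried its symbol. It was chosen by its own log ratios of null to wild-type RNA, which had stood out in earlier results of these same values, so those ratios are described here and not tested. The arrays were 2-colour cDNA arrays, on which amplified RNA of a region from a null mutant was hybridised together with a wild-type pool of that region. Cerebellum, cortex, hippocampus and brain stem-diencephalon had 5 arrays each, 3 with the null RNA in channel 1 and 2 dye swaps with the null RNA in channel 2. Both sides of every ratio were brain RNA, and the labels gave no treatment. Strain, age, sex and the size of the pools were not stated in the sources used. Nor was it stated whether differently numbered arrays hold different animals, so the spread between replicates may be technical in part. The deposited values were log ratios, read here as log2, and hold no level of Th in either channel. That null stands over wild type in the ratios given below is likely only, from the order of the channels in the labels. With the opposite order every sign turns.

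Tyrosine hydroxylase turns tyrosine into L-DOPA, the rate-limiting step in the synthesis of dopamine, noradrenaline and adrenaline, and needs iron and the cofactor tetrahydrobiopterin. In the mouse brain its RNA is known from dopaminergic neurons of the midbrain, hypothalamus and olfactory bulb and from noradrenergic neurons of the brain stem, whose fibres reach cerebellum, cortex and hippocampus. A subset of mouse Purkinje cells, the output neurons of the cerebellar cortex, is known to make the enzyme for a time during development, and ataxic mice with mutations of the calcium channel gene Cacna1a are known to keep making it there.

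The promoter is shown because it is where activators of the gene, several of them measured on these arrays, are known to act. Th lies on chromosome 7, on the minus strand. The window of 300 bases at chr7:142899946-142900245 (GRCm38.p6, RefSeq) runs from 250 bases before the start of the gene to 50 bases into it, 5′ to 3′. Capitals mark a match to the cAMP response element and a match to letters like the AP-1 site.

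Th promoter: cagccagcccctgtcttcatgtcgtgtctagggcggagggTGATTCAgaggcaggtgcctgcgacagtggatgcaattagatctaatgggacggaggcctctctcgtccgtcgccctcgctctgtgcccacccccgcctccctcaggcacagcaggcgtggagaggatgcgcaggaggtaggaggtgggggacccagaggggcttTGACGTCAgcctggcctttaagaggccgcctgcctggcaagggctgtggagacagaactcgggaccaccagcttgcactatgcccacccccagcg

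The letters TGACGTCA, the full cAMP response element that proteins of the CREB family bind, occurred once, with the first base at -45 from the start. Searched on both strands, they were present in 588 of 32851 promoters of the same length (1.79%). The letters TGANTCA, which are like the AP-1 site that Fos and Jun proteins bind, occurred once, as TGATTCA at -210, and in 7.81% of all promoters. The E box CAGGTG stood at -199 (20.2% of promoters), and none of these 3 matches overlapped. These are matches of letters in the reference sequence, and binding was not measured.

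In cerebellum the Th ratio was high on every array. As null over wild type, each array centred on its median, Th had 2.16, 1.35 and 1.58 on the arrays with the null RNA in channel 1 and 1.49 and 1.47 on the dye swaps. In the values as deposited these were 2.19, 1.36 and 1.61 on the channel 1 arrays, against -1.48 and -1.47 on the swaps. The ratio thus turned its sign with the dyes on both swapped arrays, and its size differed little between orientations, with means of 1.70 over channel 1 arrays and 1.48 over swaps. The mean over replicates was 1.61 ± 0.21 (SD, n = 3), or 3.04-fold, after arrays of one number were averaged.

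**Figure D1:**
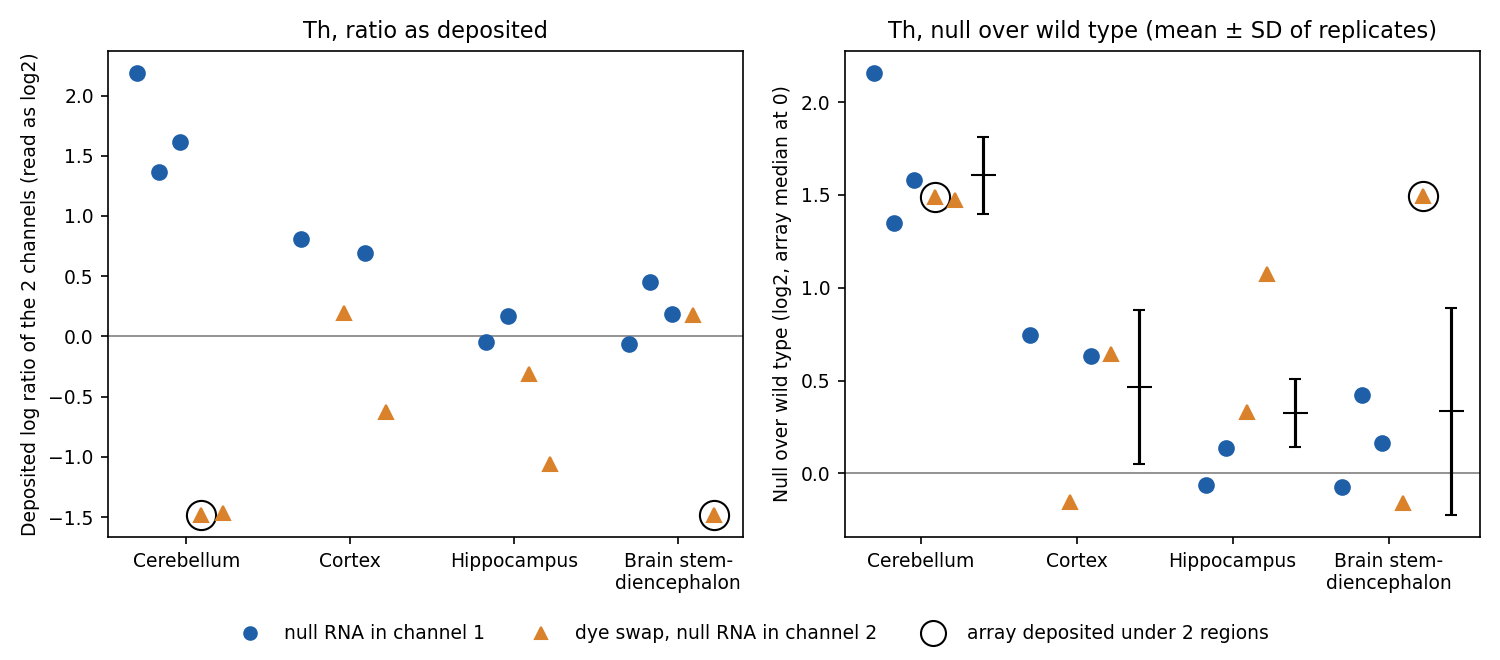
Th on each array with a value, as deposited (left) and as null over wild type in log2 with the array median at 0 (right), by region. Circles are arrays with the null RNA in channel 1, triangles are dye swaps, rings mark the array deposited under both cerebellum and brain stem-diencephalon, and bars give the mean ± SD over replicates. All 5 cerebellum arrays lie between 1.35 and 2.16, while those of the other regions lie between -0.16 and 1.07 apart from the ringed one at 1.49.

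One array needs care. The first of the cerebellum swaps above, labelled DS1, appeared almost unchanged as swap DS2 of brain stem-diencephalon. The copies correlated at 0.995 over 6748 shared probes, while the next highest of the 190 pairs of arrays reached 0.743. Its Th value was 1.49 under either label. Without it, cerebellum had 1.72 ± 0.39 (SD, n = 3), or 3.29-fold, and the turn of sign with the dyes there rests on cerebellum swap DS2 alone, at 1.47. The value of 1.49 lies within the range of the other 4 cerebellum arrays (1.35 to 2.16) and above that of the other 4 brain stem-diencephalon arrays (-0.16 to 0.42). Its true region was not stated.

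Brain stem-diencephalon holds the cell bodies of many catecholamine neurons of the brain. Its Th ratios were -0.08, 0.42 and 0.16 on the channel 1 arrays and -0.16 and 1.49 on the swaps, the last being the repeated array. They lay on both sides of 0. The mean was 0.33 ± 0.56 (SD, n = 3), or 1.26-fold, and 0.16 ± 0.27 (1.11-fold) without the repeated array. Without replicate 2, which holds the repeated array, it was 0.02. The mean was smaller than the SD of its replicates with and without that array.

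In cortex, where Th-containing fibres are known but few cell bodies, Th had 0.74 and 0.63 on channel 1 arrays 1 and 3, no value on array 2, and -0.15 and 0.64 on the swaps 2DS and DS. Of these arrays 3 of 4 lay above 0.6 and the swap of number 2 lay below 0. The mean was 0.47 ± 0.42 (SD, n = 4), or 1.38-fold, and 0.67 without replicate 2, which rests on that swap alone.

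In hippocampus, Th had -0.06 and 0.14 on channel 1 arrays 2 and 3, no value on array 1, and 0.33 and 1.07 on the swaps 1DS and 2DS. The swaps lay above the channel 1 arrays here. The mean was 0.33 ± 0.18 (SD, n = 3), or 1.25-fold, but 0.04 over the channel 1 arrays and 0.70 over the swaps. The arrays of number 2 differed by 1.14, against a median difference of 0.197 over 9573 probes on the same pair and a 95th percentile of 0.621. By contrast the cerebellum arrays of number 2 differed by 0.126 for Th, against a median of 0.247 over all probes, and those of brain stem-diencephalon number 1 by 0.081. The cerebellum arrays of number 1, one of which is the repeated array, differed by 0.666. Over all probes that pair had a median of 0.380 and a 95th percentile of 1.15. The arrays of brain stem-diencephalon number 2, one of which is the repeated array, differed by 1.07, against a median of 0.397 and a 95th percentile of 1.17 over all probes.

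By mean ratio the order was cerebellum (1.61), cortex (0.47), brain stem-diencephalon (0.33) and hippocampus (0.33). The last 3 means differed from each other by less than the SD of cortex or brain stem-diencephalon, and those of brain stem-diencephalon and hippocampus hardly at all. Cerebellum stood clear of them: its lowest replicate had 1.41, and the highest replicate elsewhere had 0.96, in brain stem-diencephalon with the repeated array. The cerebellum mean exceeded the mean of the other 3 regions by 1.23, and by 1.40 without the repeated array. With that array left out, the lowest cerebellum array (1.35) lay above the highest array of the other regions (1.07), which held for 13 of 7886 features (0.165%). Of these, the named genes other than Th were Mbtd1, Ntn1, Itm2c, Zfp462, Mt1 and Cst3, all found by this count and so chosen after their values were seen. With the repeated array counted under cerebellum alone, 12 of 8128 features (0.148%) had no overlap, Th among them. Both counts include the values on which Th was chosen and are given as a description.

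Th was among the highest probes of each cerebellum array. On the channel 1 arrays it ranked 2nd, 11th and 7th from the top of 10774, 13950 and 12953 probes with a value. On the swaps it ranked 78th of 6793 and 30th of 11490. On the repeated array, whose probes varied most (SD 0.545, against 0.276 to 0.404 on the other cerebellum arrays), a value of 1.49 thus ranks lower than on the others. In cortex it ranked 10th of 10977 on array 1, 338th and 552nd on array 3 and the unnumbered swap, and 5095th of 7662 on swap 2DS. In hippocampus and brain stem-diencephalon its place ranged from 79th and 93rd on 1 swap each to 9265th of 12684.

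Averaged over replicates, Th had the 4th highest of 8319 feature ratios in cerebellum, where a feature is a gene or a probe without a single gene name. The 3 features above it were probes without a name, at 1.67 to 2.05, so Th was the highest named gene, ahead of the cold-inducible Rbm3 at 1.40. In cortex, brain stem-diencephalon and hippocampus 141, 254 and 298 features lay above it. The difference between cerebellum and the mean of the other regions was larger than that of Th for a single feature, a probe without a gene name, at 1.80, with 1.80 in cerebellum and -0.33, -0.06 and 0.39 in cortex, hippocampus and brain stem-diencephalon. Among named genes, Stmn1, which codes for the microtubule protein stathmin, came next after Th with 0.88, and is named here after its value was seen.

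**Figure D2:**
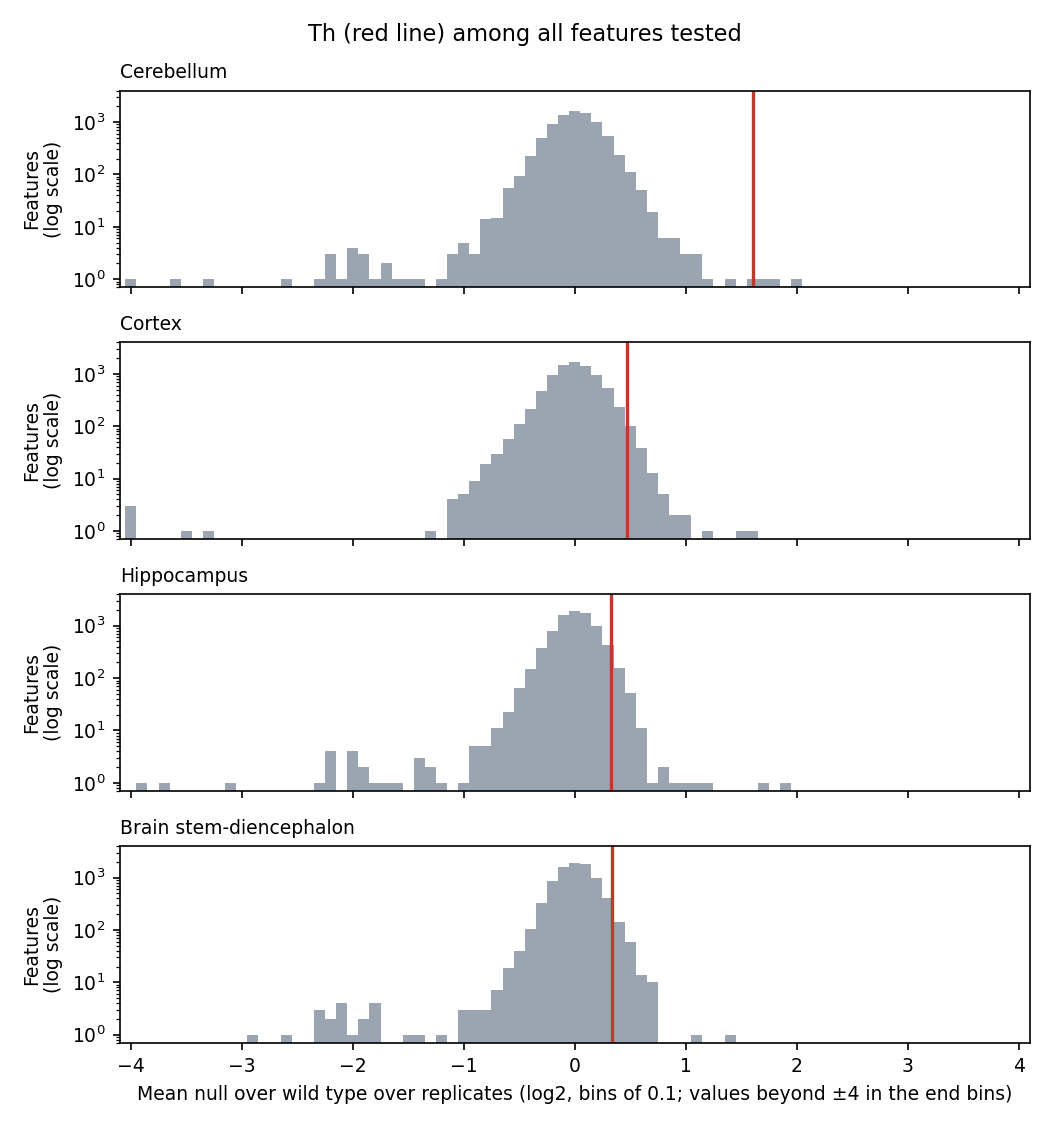
Number of features (log scale) by mean null over wild type in log2, for each region, with Th as a red line. The line stands at 1.61 in the sparse right tail of cerebellum and at 0.33 to 0.47 in the other regions, nearer the bulk but still above their 95th percentiles of 0.290 to 0.345.

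Eif2s3y, a gene of the Y chromosome, differed in sign with the array number. Apart from the repeated array it was negative on all 6 arrays of number 1 over the 4 regions (-1.36 to -0.437) and positive on the other 11 arrays with a value (0.935 to 1.64). Arrays of number 1 and the others thus did not hold the same RNA samples, though the labels do not say what differed. In cerebellum Eif2s3y was at -0.768 on array 1 and at 1.33 to 1.71 on the other 4 arrays, with the repeated one at 1.71. The Th ratio was above 1.3 on all of them. It was highest, at 2.16, on array 1, the only one of them with a negative Eif2s3y value. A link of Th with Eif2s3y was not tested. The repeated array carries the number 1 in cerebellum and the number 2 in brain stem-diencephalon, and its Eif2s3y value of 1.71 has the sign of the arrays that are not number 1. It was averaged with array 1 into cerebellum replicate 1, which had 1.82 for Th with it and 2.16 without it.

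For the genes that act with Th, all 8319 features were fitted with limma, a linear model with moderated variances, with Benjamini-Hochberg adjustment of the p-values over all of them. In cerebellum 256 features passed an adjusted p of 0.05, which is 3.08% (1.38% higher, 1.69% lower). The share was 3.22% in cortex (1.14% higher, 2.08% lower), 0.601% in hippocampus (0.132% higher, 0.469% lower) and 0.385% in brain stem-diencephalon. For the difference between cerebellum and the mean of the other regions it was 0.012%, the single unnamed probe given above. At an unadjusted p under 0.05 (limma) 1864 of the 8319 features passed in cerebellum and 1121 in hippocampus. In cerebellum 51.1% of all features lay above 0. The lists below were chosen with earlier results known. Few of their genes had a probe, and the highest cerebellum ratio among those tested was 0.64, beside 1.61 for Th. Without the repeated array 0 genes of the lists passed in cerebellum (limma).

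Of 9 genes of catecholamine synthesis and its cofactor beside Th, 1 was measured. Qdpr, which codes for the reductase that recycles tetrahydrobiopterin, had 0.22 ± 0.13 (SE) in cerebellum, 0.08 in cortex, 0.02 in hippocampus and 0.24 in brain stem-diencephalon, and passed in no region (limma, lowest adjusted p = 0.335, 0 of 1 at an unadjusted p under 0.05 in cerebellum). Ddc and Dbh, which code for the enzymes that follow Th on the way to dopamine and noradrenaline, and Gch1, of cofactor synthesis, were not measured here. Of the related aromatic amino acid hydroxylases, Tph2, which makes the precursor of serotonin, had too few values for the fit and ranged from -0.42 to 0.34 on 4 cerebellum arrays.

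Of 10 genes of catecholamine transport and breakdown, 3 were tested. Maoa, which codes for monoamine oxidase A, had 0.23 ± 0.09 in cerebellum and 0.13 to 0.21 in the other regions (limma, lowest adjusted p = 0.165). Aldh1a1, an aldehyde dehydrogenase of midbrain dopaminergic neurons, had -0.06 ± 0.11 in cerebellum. It fell in cortex by 0.51 ± 0.09 (SE, n = 4, limma adjusted p = 0.0191), in 4 of 4 replicates, and had -0.47 in hippocampus and -0.29 in brain stem-diencephalon. That call ended without cortex replicate 3 or 4 (limma adjusted p = 0.0921 and 0.381), and when the moderation was robust with a trend (0.0659). The mitochondrial Aldh2 had -0.14 ± 0.13 in cerebellum and passed in no region. Of this list 0 of 3 genes passed in cerebellum, and 1 had an unadjusted p under 0.05 (limma), at a median of -0.06 beside 0.01 over all features.

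Of 27 genes of catecholamine receptors and signalling, 2 were tested and 0 passed with limma. An unadjusted p lay under 0.05 for 1 of them, in hippocampus. Ppp1r1b, whose product DARPP-32 relays dopamine signals in striatal neurons, had -0.07 ± 0.14 in cerebellum, 0.24 in cortex, -0.61 in hippocampus and -0.17 in brain stem-diencephalon (limma, lowest adjusted p = 0.084). Arpp19, a cAMP-regulated inhibitor of protein phosphatase, had 0.04 ± 0.10 in cerebellum. Of 18 transcription factors of catecholamine neurons, Gata2, Gata3 and Otx2 had probes, and none had enough values to be fitted. On the cerebellum arrays with a value Gata3 lay between -0.33 and 0.34 and Otx2 between -0.30 and 0.12.

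**Figure D3:**
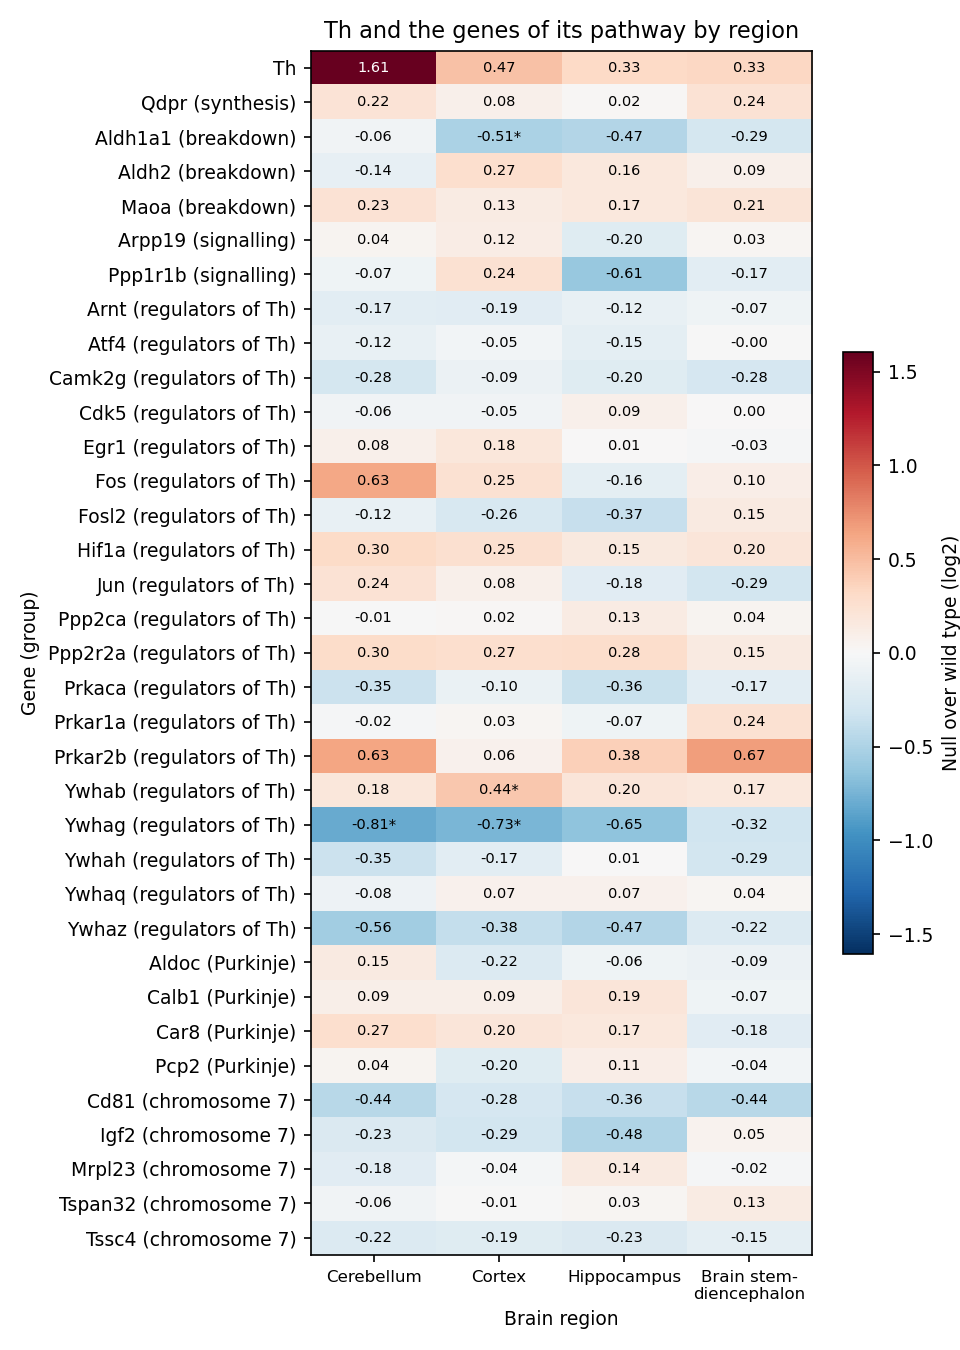
Null over wild type in log2 by region for Th (mean of replicates) and for the tested genes of its pathway, its regulators, Purkinje cell markers and its neighbours on chromosome 7 (values fitted with limma). Asterisks mark an adjusted p under 0.05 over all features, and Th was not tested. The Th cell of cerebellum, at 1.61, is the deepest, and no other cerebellum value in the plot exceeds 0.63.

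The largest list held activators of the Th gene and kinases, phosphatases and partners of its protein. Of 39 genes 19 were tested. In cerebellum 1 of the 19 passed, with 3.08% of all features passing. An unadjusted p lay under 0.05 for 6 of 19 (limma), beside 1864 of all 8319 features. Above 0 lay 7 of 19, beside 51.1% of all features, at a median of -0.06 beside 0.01. Fos, a subunit of AP-1, had 0.63 ± 0.16 in cerebellum in 3 of 3 replicates (0.49 to 0.70) and missed the threshold (limma adjusted p = 0.0515). It had 0.25 in cortex, -0.16 in hippocampus and 0.10 in brain stem-diencephalon. The related Fosl2 had -0.12 ± 0.09 in cerebellum. Fos was not the highest of the list there, at 0.626 beside a maximum of 0.629. In brain stem-diencephalon the maximum was 0.673, and 0 genes of the list passed as higher in either region (limma).

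Ywhag, which codes for a 14-3-3 protein of the family that binds phosphorylated tyrosine hydroxylase, was the gene that passed. It fell in cerebellum by 0.81 ± 0.19 (SE, n = 3, limma adjusted p = 0.0397) and in cortex by 0.73 ± 0.16 (n = 4, limma adjusted p = 0.0348), and had -0.65 and -0.32 in hippocampus and brain stem-diencephalon. The cerebellum call ended without the repeated array (limma adjusted p = 0.166) and without each of 7 single replicates (limma adjusted p from 0.0502 to 0.235), namely cortex 2 and 4, hippocampus 2, each of cerebellum and brain stem-diencephalon 3. It also ended with arrays scaled to one spread (0.0576) and under robust moderation with a trend (0.0956). The cortex call ended without cortex 2, 3 or 4, cerebellum 2 or 3, or brain stem-diencephalon 3 (0.0511 to 0.474), and with the scaling (0.0825) and the trend (0.0720). Ywhab, another 14-3-3 gene, rose in cortex by 0.44 ± 0.11 (n = 4, limma adjusted p = 0.048) and had 0.18 ± 0.13 in cerebellum. Its call ended without 8 of 13 single replicates (limma adjusted p from 0.0622 to 0.499), which were cortex 2, 3 and 4, hippocampus 2, cerebellum 2 and 3, and brain stem-diencephalon 2 and 3. It ended too with the scaling (0.0951) and the trend (0.0757).

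In bulk tissue a change in the number of cells of a type and a change in RNA per cell cannot be told apart. Purkinje cells were followed by 4 tested markers of 17. Car8 had 0.27 ± 0.13, Aldoc 0.15 ± 0.11, the calcium-binding Calb1 0.09 ± 0.10 and Pcp2 0.04 ± 0.16 in cerebellum. All 4 lay above 0, as did 51.1% of all features, at a median of 0.12, where Th stood at 1.61. Of the 4 markers 0 passed with limma (0 at an unadjusted p under 0.05). The list also held Cbln1, which is not a marker of Purkinje cells alone. It had too few values for the fit and ranged from -0.50 to 0.13 on the cerebellum arrays. None of the genes listed separately as markers of cerebellar granule cells was measured here.

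Catecholamine and serotonin neurons of the brain stem lie close to the cerebellum, and of their 9 markers only Tph2 had a probe, with the values given above. Of 9 markers of dopaminergic neurons, Aldh1a1 and Sncg were tested, at -0.06 and -0.30 ± 0.09 in cerebellum, and neither passed there. Dbh, Slc6a2 and Slc6a3, which define noradrenergic and dopaminergic neurons, were not measured here. A part of such neurons in the Th ratio was not tested.

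Other cell types were followed by few markers. In cerebellum all 3 tested microglial genes lay above 0, with C1qa at 0.60 ± 0.18, C1qb at 0.42 ± 0.11 and C1qc at 0.38 ± 0.13 (limma adjusted p of 0.078, 0.0556 and 0.103). An unadjusted p lay under 0.05 for all 3 (limma), beside 1864 of all 8319 features. Of the 3 genes 0 lay above 0 in cortex (-0.34 to -0.16), 1 in hippocampus (-0.46 to 0.11) and 2 in brain stem-diencephalon (-0.02 to 0.26). Of all features 51.1% lay above 0 in cerebellum, and 49.7%, 51.8% and 52.0% in these other regions. C1qb had -0.34, -0.46 and -0.02 in these regions. Its difference between cerebellum and the mean of the other regions missed the threshold (0.69 ± 0.12, limma adjusted p = 0.104). Ttr, of the choroid plexus, fell in cerebellum by 1.07 ± 0.20 (limma adjusted p = 0.0186), a call that ended without the repeated array (adjusted p = 0.317) and without cerebellum replicate 1 or 2 (0.0755 and 0.195), and with arrays scaled to one spread (0.0647). The other choroid and meningeal genes, Dcn, Lum and Igf2, had 0.01, -0.06 and -0.23. The vessel gene Pecam1 fell by 0.40 ± 0.09 in cerebellum (limma adjusted p = 0.0427) and by 0.52 ± 0.09 in hippocampus (0.0268). The cerebellum call ended without the repeated array (0.145) and without 7 single replicates (limma adjusted p from 0.0503 to 0.208), which were cortex 4, hippocampus 2 and 3, cerebellum 1 and 3, and brain stem-diencephalon 2 and 3. The hippocampus call ended without any hippocampus replicate or brain stem-diencephalon replicate 3 (0.0666 to 0.331). Under robust moderation with a trend both Pecam1 calls ended (limma adjusted p = 0.141 in cerebellum and 0.248 in hippocampus). The other 2 genes of vessels and blood, Cdh5 and the haemoglobin gene Hbb-b1, had -0.48 and 0.64 in cerebellum. Slc1a3 and Gja1 of astrocytes had 0.24 and 0.02, and Mbp of oligodendrocytes 0.23, none past the threshold in any region (limma). The part of these cell types in the Th ratio was not tested.

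The tested genes next to Th on chromosome 7 lay below 0 in cerebellum and also in cortex. Of the 3 nearest measured genes on each side, 5 were tested and 0 passed in any region with limma. In cerebellum an unadjusted p lay under 0.05 for 1 gene (limma), beside 1864 of all 8319 features. There all 5 lay below 0, with the imprinted growth factor Igf2 at -0.23 ± 0.13, Mrpl23 at -0.18 ± 0.13, Tspan32 at -0.06 ± 0.24, the tetraspanin Cd81 at -0.44 ± 0.16 and Tssc4 at -0.22 ± 0.11, a median of -0.22. Lsp1 had too few values for the fit and lay between -0.03 and 0.26 on 4 cerebellum arrays. In cortex the 5 tested genes ranged from -0.29 to -0.01. Above 0 lay 2 of 5 in hippocampus and 2 of 5 in brain stem-diencephalon. Of all features 51.1% lay above 0 in cerebellum, 49.7% in cortex, 51.8% in hippocampus and 52.0% in brain stem-diencephalon.

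The genes whose ratios ran most like those of Th were found by Pearson's r over the replicates both had, at least 10, as a description. Over 5097 named genes r had a median of -0.02, and 5% of genes lay above 0.48. The highest were Ddx54, an RNA helicase (r = 0.83), Kank2, an ankyrin-repeat protein (0.82), Mical3, of the MICAL monooxygenases (0.81), Slc35e1 (0.79), Pdcl3 (0.78) and the RNA-binding Rbpms (0.77), each over 13 replicates. Their own ratios were far smaller than those of Th, at 0.10 to 0.29 in cerebellum and -0.20 to 0.05 elsewhere. Without the repeated array, which enters replicates of 2 regions, r was 0.79 for Ddx54, 0.80 for Kank2 and 0.74 for Mical3, but 0.68 for Slc35e1, 0.50 for Pdcl3 and 0.62 for Rbpms. The most opposite were Tshz2, a zinc-finger gene (r = -0.84), Mrps36 (-0.83, 10 replicates) and the co-chaperone gene Dnaja1 (-0.81), with -0.22, -0.58 and -0.20 in cerebellum. The points share arrays, the wild-type pools and, under both of its labels, the repeated array.

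**Figure D4:**
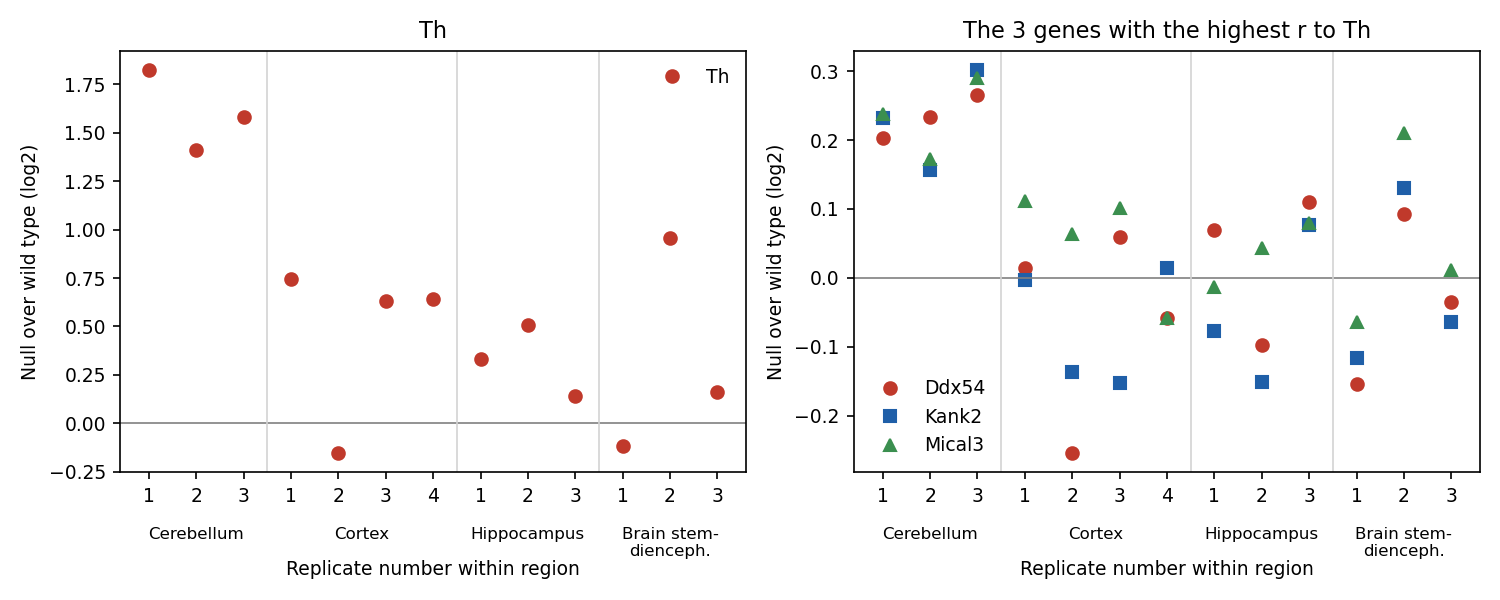
Null over wild type in log2 by replicate and region for Th (left) and for the 3 genes with the highest Pearson's r to it over 13 replicates (right), on separate vertical scales. Th lies between 1.41 and 1.82 in cerebellum, while Ddx54, Kank2 and Mical3 lie at means of 0.23 there.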

How the data were processed

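The deposited values are log2 ratios (so read here) of the 2 channels of each array, with array medians near 0, from 0.00862 to 0.0609. The sources used state neither log base, order of the channels, normalization nor genome build. The arrays held between 6793 and 13963 of 15245 probes with a value, and precision is limited by how few arrays there were. Swapped arrays were multiplied by -1 and each array was centred on its median. Symbols came from the platform annotation (9604 probes with 1 symbol, 213 with several, 5428 with none). For 9496 of the probes with 1 symbol the Entrez ID was matched, and the GRCm38.p6 name was used whether or not it differed. A probe entered if each region had at least 3 values, at least 1 per orientation (9701 probes), and probes of a gene were averaged (8319 features). Same-numbered arrays of one region were averaged into a replicate, giving 4 in cortex, where the unnumbered swap stood alone and may repeat a numbered extract, and 3 in each other region. No value of Th was imputed.

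Every feature was fitted with a term per region and one for orientation in limma 3.58.1 (R 4.3.3), tested against 0 and for cerebellum minus the mean of the other regions, at an adjusted p of 0.05. The wild-type pool's own spread is left out. The script was tested on simulated data. Th and the lists were chosen with earlier results of these data known. Of each list the genes with the smallest p, up to 4, and all that passed were named, with all measured neighbours of Th, and for likeness the 6 highest and 3 lowest, RIKEN clones and predicted genes left out. Alternatives were centring, scaling, orientation, probe filter, moderation, the repeated array, single replicates and a replicate block. The mutated gene itself is not reported here.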

Additional observations from a re-analysis of the deposited data

Results flagged for a closer look

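In cortex, groups of 4 replicates were examined for genes named above. The groups share arrays, and Th and other genes were chosen on their values, so no chance rate is given. In 4 of 36 such groups a replicate lay far from the other 3. For Th it was replicate 2, at -0.152 on its swapped array alone, while the other replicates lay between 0.632 and 0.745. For Ywhag, C1qb and Ttr it was replicate 1, at -0.194, -0.0710 and -0.132, while their other cortex replicates lay between -0.947 and -0.857, -0.447 and -0.410, and -0.730 and -0.665.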

How the results depend on the processing

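The cerebellum ratio of Th stayed between 1.48 and 1.72 under the 12 alternatives, and its excess over the other regions between 0.943, over the swaps alone, and 1.40, without the repeated array, under 22. The swaps alone counted the repeated array under both cerebellum and brain stem-diencephalon, where the mean over swaps was 0.668. Leaving out replicates in turn gave 1.50 to 1.70 in cerebellum, 0.374 to 0.673 in cortex, 0.236 to 0.420 in hippocampus and 0.0230 to 0.560 in brain stem-diencephalon, and 1.12 to 1.33 for the excess. In hippocampus Th had 0.0380 over channel 1 arrays and 0.704 over swaps. No direction of Th turned. Each probe of Th alone was not run, as there is 1 probe.

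Counts of features past the threshold were far less stable, so the shares given above are loose. In cortex the count of 268 became 411 without the repeated array, 44 after scaling to one spread, 1 with a variance trend and robust moderation, and 3 (without replicate 4) to 1521 (without replicate 1) over single replicates. In hippocampus the count of 50 became 30 on complete features, 12 with the trend and 7 (without replicate 2) to 56. In cerebellum the count of 256 became 43 without the repeated array, 152 after scaling, 24 with the trend and 15 (without replicate 2) to 426 (without hippocampus replicate 1). In brain stem-diencephalon the count of 32 became 15 on complete features, 18 with the trend and 7 (without replicate 2) to 41. For the difference of cerebellum from the other regions the count of 1 became 3 without the repeated array, 7 after scaling, 2 with no orientation term, 0 on complete features (limma, 217 at an unadjusted p under 0.05) and 0 to 5 over single replicates. With the replicate block it was 6, while the main fit treated same-numbered replicates of different regions as independent. The labels do not say that numbers pair the arrays across regions, and same-numbered replicates correlated between -0.227 and 0.687 after the fit (12 of 18 pairs over 0.1). The cause of these shifts was not tested.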
